A study of Mus musculus with 6 samples.

Results

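Peroxisomes are small organelles, bounded by a single membrane, that shorten very long and branched fatty acids and start the synthesis of ether lipids. The genes described here encode proteins that build the organelle (the peroxins, named Pex) and proteins that carry or convert lipids in it. They were taken from a fixed list of 36 gene names, chosen by function and matched to the array's annotation by symbol. The choice was made with earlier results of these data known, so counts of the list describe it and test nothing. Of these, 35 had a row among the 23185 genes tested, and the name Ech1d1 matched no row and was dropped. Peroxins bring enzymes made in the cytosol into the organelle: receptors bind the enzymes' targeting signals, a docking complex takes the receptors in, and ubiquitin ligases and an ATPase recycle them. Inside, oxidation of fatty acids yields hydrogen peroxide and shortened acyl chains, which leave as carnitine esters for mitochondria, the main site of fatty acid oxidation in heart muscle.

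The arrays measured RNA of FVB mice, an inbred albino strain: 3 arrays of irisin knockout animals and 3 of wild type animals. Irisin is a peptide hormone cut from the membrane protein that Fndc5 encodes, and the knockout was made by injecting zygotes with Cas9 mRNA and 5 guide RNAs, with littermates as controls. Both groups ate standard chow with 10% fat for 24 weeks; the labels used here give no age beyond that feeding time. The material is called cardiomyocytes in some labels and myocardium in another, and nothing states that the 3 arrays of a group are separate animals, so p-values may measure technical spread only. Values are the authors' log2 RMA values (RMA summarises the probes of a gene into 1 value per array), differences are irisin knockout minus wild type in log2 units, and n is 3 arrays in each group. A gene was called when its adjusted p in limma, adjusted over all 23185 genes, was at most 0.05.

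The library labelled irisin knockout replicate 1 stood apart for the targeted gene. Fndc5 read 7.68, 5.49 and 5.45 in the irisin knockout arrays, against 8.42, 8.40 and 7.83 in the wild type arrays (difference -2.01, SE 0.54, adjusted p = 0.0359). All irisin knockout values lay below all wild type values, and the two-sided exact permutation test gave p = 0.1, the smallest that 3 against 3 allows. The call of Fndc5 held without irisin knockout replicate 1 (adjusted p = 0.00217) and was lost without any other single array (adjusted p up to 0.133). Of all 23185 genes 16.6% were called (10.4% higher and 6.18% lower). Marker lists of other cell types, read beside these shares, differed with the genotype to unlike degrees. Fibroblast markers were called lower for 6 of 9 and higher for 0, with a summed level of 11.08 to 11.18 in irisin knockout and 11.40 to 11.98 in wild type (log2 of the summed linear values). Smooth muscle and pericyte markers were called lower for 5 of 9 and higher for 2, with a median difference of -2.16 (summed level 10.71 to 10.92 against 10.82 to 11.76 in wild type). The lower ones were Cnn1 (-3.04), Tagln (-2.83), Myl9 (-2.74), Myh11 (-2.35) and Acta2 (-2.16), and the higher ones Kcnj8 (1.49) and Rgs5 (1.23). Endothelial markers were called lower for 4 of 9 and higher for 0 (10.92 to 11.12 against 11.29 to 11.56 in wild type). Cardiomyocyte markers were called higher for 3 of 13 and lower for 0 (14.82 to 14.87 against 14.63 to 14.81 in wild type), and the arrays thus held markers of heart muscle cells and of other cells. That direction depended on the scaling. After cyclic loess, a scaling that removes a difference that depends on level, Myh7 stayed higher (1.55, adjusted p = 0.0277). Actn2 (0.204) and Pln (0.529) lost their calls. Ttn (-1.02, 0.00977), Myh6 (-0.66, 0.00973), Tnni3 (-0.65, 0.0235) and Ryr2 (-0.57, 0.0314) were then lower. Hepatocyte markers, included because liver is rich in peroxisomes, were called lower for 2 of 8 and higher for 0 (4.86 to 5.08 against 5.32 to 6.86 in wild type) and macrophage markers lower for 1 of 8 and higher for 0 (7.79 to 7.81 against 7.95 to 7.98 in wild type). Of 7 adipocyte and 4 blood cell markers 0 were called. Adipocyte markers summed to 5.78 to 6.09 in irisin knockout and 5.72 to 6.01 in wild type. Blood cell markers summed to 5.30 to 5.70 in irisin knockout and 5.26 to 7.60 in wild type. The lowest value of all rows was 0.0929, so a value above 0 does not show that a marker was detected. The part of these cell types in the results below was not tested. In such bulk RNA more or fewer cells of a type cannot be told apart from more or less RNA per cell.

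Peroxisomal genes were mostly higher in the irisin knockout arrays. Of the 35 genes, 17 were called higher (48.6%, beside 10.4% of all genes), 2 were called lower (5.71%, beside 6.18% of all genes) and 16 did not pass. The genes with the largest rises were Pex11a, which promotes growth and division of peroxisomes (3.93-fold), the membrane protein gene Pxmp4 (2.98-fold), the dienoyl-CoA reductase gene Decr2 (2.97-fold) and Pex3, which receives membrane proteins (2.83-fold). The genes that fell were Far1, a fatty acyl-CoA reductase of ether lipid synthesis, and the thiolase gene Acaa1a. The median difference over the 35 genes was 0.61, beside -0.05 over all genes, and 28 of the 35 differences were positive. In 21 genes all irisin knockout values lay above all wild type values (17.2% of all genes did so), in 3 all lay below (17.0% of all genes), and in 11 the groups overlapped. The mean over the 35 genes was 4.87, 4.96 and 4.87 in irisin knockout and 4.40, 4.38 and 4.35 in wild type. No array of either group reached the other group, but over all 23185 genes the arrays were also apart. Array medians over all genes were 2.23 to 2.25 in irisin knockout and 2.33 to 2.36 in wild type. Summed levels of all genes were 19.62 to 19.66 against 19.43 to 19.49 in wild type (log2 of the summed linear values).

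**Figure D1:**
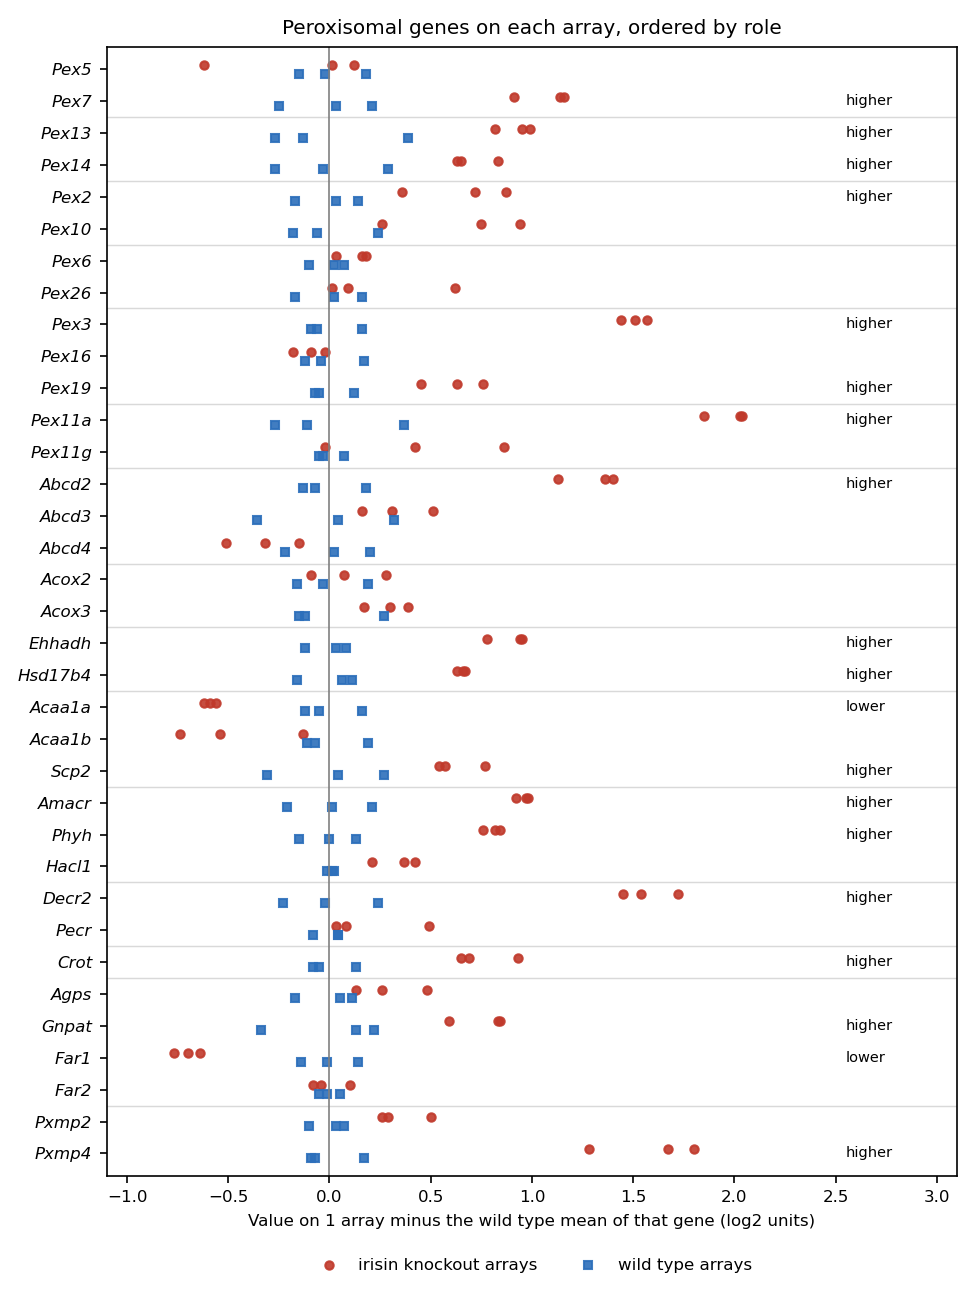
Value of each of 35 peroxisomal genes on each array minus that gene's wild type mean, in log2 units, with irisin knockout arrays as red circles and wild type arrays as blue squares, and the call at an adjusted p of 0.05 at the right. In 17 genes called higher the red circles lie right of the blue squares, and in Far1 and Acaa1a they lie left of them.

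The level of a gene and the scaling of the arrays both bear on these counts. All 17 genes called higher were among the 32 members whose mean level lay above the median gene, and of all 11592 genes in that upper part 20.2% were called higher. Median differences in that upper part were 0.64 for the members and 0.05 for all genes. Centring each array on its median moved the median of all genes to 0.07. In that scaling 20 members were called higher and 2 lower, and 13.6% of all genes were called higher. Of all calls 76.4% were higher, against 62.8% on the deposited values. Cyclic loess, which removes a difference that depends on level, left 13 members higher (8.08% of all genes) and 2 lower, with a median over the members of 0.39. Called higher were 12 members without irisin knockout replicate 1 (6.62% of all genes), and 12 to 17 when any 1 array was left out. The same 11 of the 17 genes were called higher in all 6 fits without 1 array and in all 3 other scalings.

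**Figure D2:**
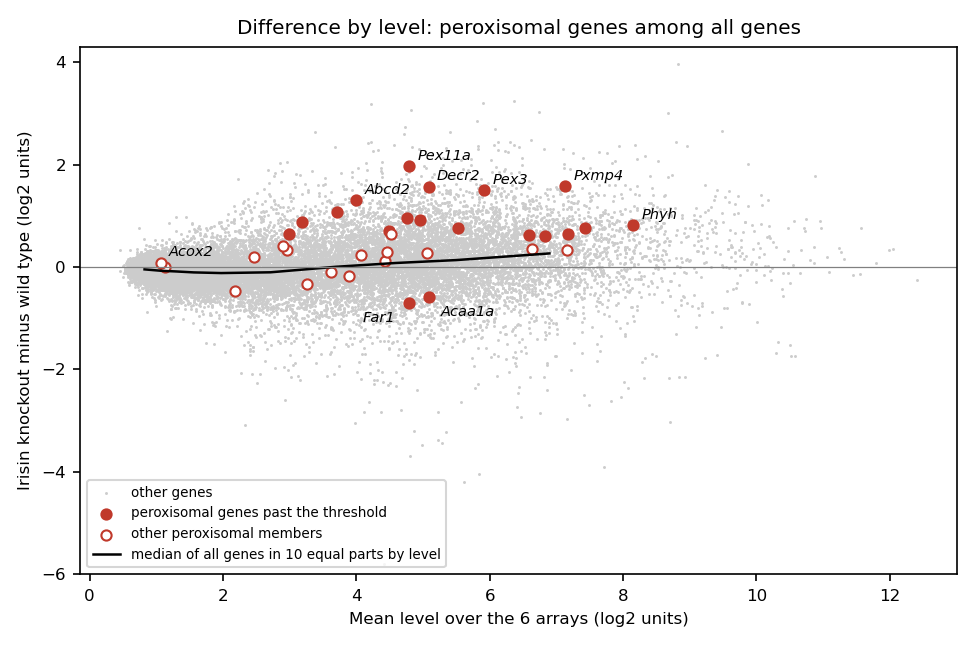
Irisin knockout minus wild type against the mean level over 6 arrays, both in log2 units, with 23185 genes, of which the 35 peroxisomal genes are drawn as red circles (filled where past the threshold). The black line, the median of all genes in 10 equal parts by level, lies between -0.12 and 0.27 and is highest in the brightest part, and 17 filled circles lie above it.

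Promoter sequences are shown for the 3 genes with the largest rises and for both genes that fell, to set the letters upstream of genes that moved in opposite directions side by side. They are the 250 bases before the gene start on the gene's own strand, from RefSeq on GRCm38.p6, and capitals mark GC boxes (GGGCGG, the letters that Sp1 factors bind) and CCAAT boxes (CCAAT, bound by NF-Y), searched on both strands; neighbouring boxes may run together. The regions are chr7:79743132-79743381 (minus strand), chr2:154603674-154603923 (minus strand), chr17:26090165-26090414 (minus strand), chr7:113513584-113513833 (plus strand) and chr9:119341044-119341293 (plus strand).
Pex11a: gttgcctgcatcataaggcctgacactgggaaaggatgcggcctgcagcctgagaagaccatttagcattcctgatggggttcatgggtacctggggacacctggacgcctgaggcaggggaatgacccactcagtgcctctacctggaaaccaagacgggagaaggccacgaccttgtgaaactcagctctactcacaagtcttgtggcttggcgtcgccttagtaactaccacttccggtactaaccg
Pxmp4: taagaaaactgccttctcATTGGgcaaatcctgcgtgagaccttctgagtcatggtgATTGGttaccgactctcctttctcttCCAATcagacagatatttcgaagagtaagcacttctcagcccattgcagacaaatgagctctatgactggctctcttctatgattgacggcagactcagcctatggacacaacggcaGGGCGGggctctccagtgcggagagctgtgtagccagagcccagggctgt
Decr2: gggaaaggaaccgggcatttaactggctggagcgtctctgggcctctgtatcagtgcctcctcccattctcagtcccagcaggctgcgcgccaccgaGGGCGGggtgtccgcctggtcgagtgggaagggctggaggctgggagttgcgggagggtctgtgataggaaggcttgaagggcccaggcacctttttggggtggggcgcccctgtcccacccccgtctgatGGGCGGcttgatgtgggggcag
Far1: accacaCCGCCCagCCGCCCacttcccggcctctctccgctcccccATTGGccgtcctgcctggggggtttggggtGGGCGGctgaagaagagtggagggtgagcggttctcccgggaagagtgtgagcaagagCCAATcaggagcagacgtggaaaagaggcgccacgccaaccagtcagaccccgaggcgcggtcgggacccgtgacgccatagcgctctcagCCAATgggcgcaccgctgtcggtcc
Acaa1a: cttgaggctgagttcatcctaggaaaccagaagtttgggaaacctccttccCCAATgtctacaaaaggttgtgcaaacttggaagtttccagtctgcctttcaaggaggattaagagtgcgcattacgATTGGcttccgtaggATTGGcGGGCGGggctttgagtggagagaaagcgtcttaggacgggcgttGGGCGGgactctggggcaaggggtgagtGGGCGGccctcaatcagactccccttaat
The Pex11a window held neither box, and the Decr2 window held 2 GC boxes and no CCAAT box. Pxmp4 had 1 GC box and 3 CCAAT boxes. Far1 and Acaa1a, the genes that fell, each had 3 GC boxes and 3 CCAAT boxes. The table held 33 promoters for 28 of the 35 genes. A GC box was found in 63.6% of them, beside 32.7% of all 32851 promoters in the table, and a CCAAT box in 42.4%, beside 33.8%. For the 12 members called higher that had a promoter, the shares were 66.7% and 33.3%. Acox3, which was not called, had 4 GC boxes. Whether boxes go with the direction of a difference was not tested. Members' promoters also held more CpG pairs, with a median of 13 beside 6 for all promoters, and a median GC content of 58.8% beside 52.4%. The element that PPAR and RXR receptors bind, AGGTCA repeated after a gap of 1 base (both strands, at most 2 mismatches, any letter in the gap), was searched in 300 bases from 250 before to 50 after the start. It was found in 1 member promoter, that of Acox2 (AGGACAGAGGTGA), and in 3.86% of all promoters. These are matches of letters in a short window and say nothing of whether a factor binds there or elsewhere.

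Among the 13 peroxins 7 were called higher and 0 lower, beside 10.4% and 6.18% of all genes, and the median was 0.65. Pex7, the receptor for enzymes with the second type of targeting signal, read 4.33, 4.31 and 4.08 in the irisin knockout arrays, against 2.92, 3.38 and 3.20 in the wild type arrays (difference 1.07, SE 0.15, adjusted p = 0.00265). Every irisin knockout array lay above every wild type array. Pex5, the receptor for the more common first type of signal, did not pass: its groups overlapped, with 3.35 to 4.09 in irisin knockout and 3.82 to 4.15 in wild type (difference -0.17, 95% interval -0.63 to 0.29). The lowest value was that of irisin knockout replicate 1, and without that array the difference was 0.06.

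Both docking genes were called higher. Pex13 read 5.49, 5.32 and 5.45 in irisin knockout, against 4.89, 4.23 and 4.37 in wild type (difference 0.92, SE 0.18, adjusted p = 0.00931). Pex14 read 4.79, 4.97 and 4.77, against 4.11, 3.87 and 4.43 in wild type (difference 0.70, SE 0.16, adjusted p = 0.0182). The groups did not overlap in either gene. The call of Pex14 was lost without irisin knockout replicate 1, 2 or 3 (adjusted p = 0.056, 0.0805 and 0.0508).

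The ubiquitin ligases Pex2 and Pex10 mark import receptors for recycling. Pex2 read 3.54, 3.03 and 3.39 in irisin knockout, against 2.50, 2.70 and 2.81 in wild type, with no overlap (difference 0.66, SE 0.16, adjusted p = 0.0256). It lost its call without irisin knockout replicate 1 (0.0968) or 3 (0.0907) or wild type replicate 1 (0.0596). Pex10 read 5.14, 4.95 and 4.46, against 4.14, 4.44 and 4.02 in wild type, and missed the threshold (difference 0.65, SE 0.19, adjusted p = 0.056). Its lowest irisin knockout value, in replicate 3, lay just above its highest wild type value. Pex10 passed without irisin knockout replicate 3 (0.0242) or wild type replicate 2 (0.0435) and after centring on array medians (0.0281). Pex6, the ATPase that pulls receptors back out, and its membrane anchor Pex26 did not pass, with differences of 0.12 (95% interval -0.14 to 0.39) and 0.24 (95% interval -0.17 to 0.65) and overlapping groups.

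The genes that insert membrane proteins did not move together. Pex3 averaged 6.67 ± 0.07 in irisin knockout and 5.16 ± 0.14 in wild type (SD, n = 3 each), from 6.67, 6.73 and 6.60 against 5.32, 5.07 and 5.10. The groups were far apart, a 2.83-fold rise (SE of the log2 difference 0.12, adjusted p = 0.000334). Pex19, the shuttle that brings membrane proteins to Pex3, read 7.15, 7.28 and 6.97, against 6.45, 6.64 and 6.47 in wild type (difference 0.61, SE 0.13, adjusted p = 0.0138). Its groups did not overlap, but the call was lost without irisin knockout replicate 1 (0.0544) or 2 (0.0642), after quantile normalization (0.079) and after cyclic loess (0.105). Pex16, the third gene of that step, overlapped between the groups at -0.10 (95% interval -0.38 to 0.19).

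Pex11a had the largest difference of all 35 genes. It read 5.66, 5.85 and 5.84 in the irisin knockout arrays, against 4.18, 3.70 and 3.54 in the wild type arrays, so that even its lowest irisin knockout array lay well above its highest wild type array. The difference was 1.98 (SE 0.17, 95% interval 1.58 to 2.37, adjusted p = 0.000456), and the adjusted p stayed between 0.000354 and 0.00483 without any 1 array. Its relative Pex11g was uneven across the irisin knockout arrays, at 3.12, 3.56 and 2.68, against 2.67, 2.77 and 2.65 in wild type. Its groups overlapped and it did not pass (difference 0.42, SE 0.21, adjusted p = 0.222).

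**Figure D3:**
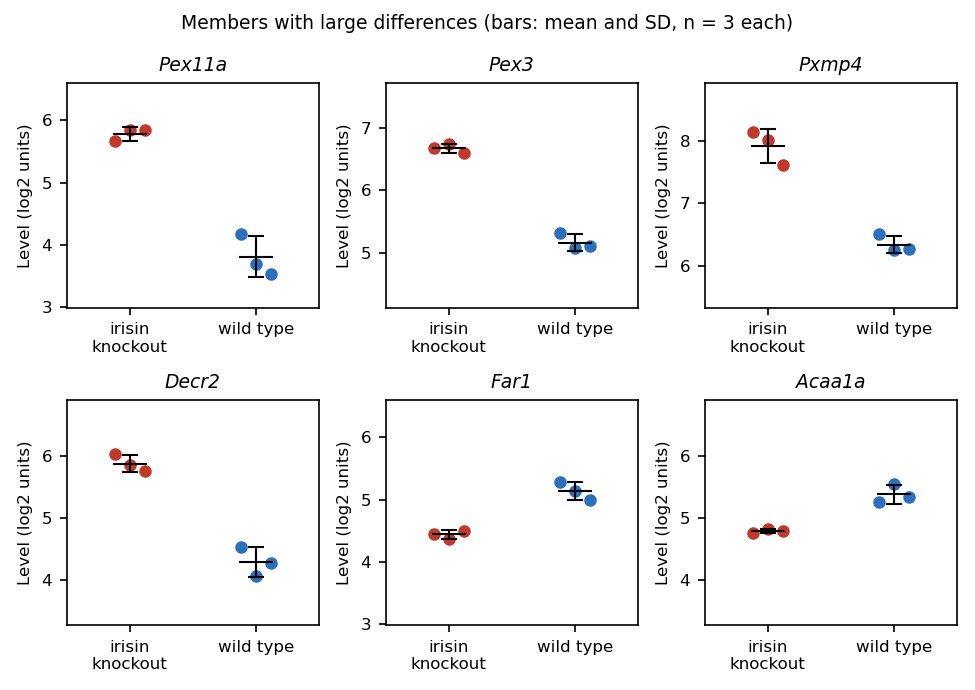
Levels of 6 peroxisomal genes in log2 units, 1 point for each array, with irisin knockout left of wild type; horizontal bars are means and error bars the SD of 3 arrays. Pex11a, Pex3, Pxmp4 and Decr2 are higher in irisin knockout and Far1 and Acaa1a lower, with no overlap in any of the 6 panels.

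Of the ABC transporters, which carry acyl-CoA across the peroxisomal membrane, Abcd2 alone was called. It read 4.71, 4.75 and 4.48 in irisin knockout, against 3.22, 3.28 and 3.53 in wild type, with the groups far apart (difference 1.30, SE 0.14, adjusted p = 0.00086). Abcd3, the abundant transporter of branched and dicarboxylic acids, read 7.16, 7.31 and 7.51, against 6.64, 7.32 and 7.04 in wild type, and overlapped (difference 0.33, adjusted p = 0.289). Abcd4, which resides in lysosomes and serves vitamin B12 transport despite its family name, had a difference of -0.33 (95% interval -0.67 to 0.02). Of the membrane proteins, Pxmp4 read 8.14, 8.01 and 7.62 in irisin knockout, against 6.51, 6.25 and 6.27 in wild type (difference 1.58, SE 0.16, adjusted p = 0.000749). Pxmp2, a channel of the peroxisomal membrane, read 6.75, 6.96 and 6.72, against 6.49, 6.53 and 6.36 in wild type. Its groups did not overlap, but it missed the threshold (difference 0.35, SE 0.12, adjusted p = 0.092) unless arrays were centred on their medians (0.0371).

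Of 13 genes of fatty acid oxidation and carnitine transfer, 7 were called higher and 1 lower, with a median of 0.63. The shares of all genes were 10.4% higher and 6.18% lower. The first oxidation step did not pass in either oxidase gene measured: Acox2 differed by 0.09 (95% interval -0.25 to 0.42) from a level at the bottom of the range (15.0% of all genes were dimmer), and Acox3 by 0.28 (95% interval -0.05 to 0.62). The next steps are carried by multifunctional enzymes, and both of their genes were higher. Ehhadh, the L-type enzyme, read 3.68, 3.69 and 3.52 in irisin knockout, against 2.62, 2.82 and 2.77 in wild type (difference 0.89, SE 0.12, adjusted p = 0.00222). Hsd17b4, the D-type enzyme that also handles branched chains and bile acid precursors, read 7.48, 7.52 and 7.51, against 6.69, 6.91 and 6.96 in wild type (difference 0.65, SE 0.12, adjusted p = 0.00788). Groups did not overlap in either gene. Hsd17b4 lost its call after quantile normalization (0.0631) and cyclic loess (0.106).

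Thiolases, which cleave off the shortened chain, went in opposite directions. Acaa1a, a straight-chain thiolase, fell to 4.76, 4.82 and 4.79 in irisin knockout, against 5.26, 5.54 and 5.33 in wild type (difference -0.59, SE 0.12, adjusted p = 0.0123). It lost its call without irisin knockout replicate 1 (0.0516). Its close mouse paralog Acaa1b read 1.68, 1.88 and 2.29, against 2.61, 2.31 and 2.35 in wild type; the groups did not overlap and it missed the threshold (difference -0.48, SE 0.17, adjusted p = 0.106), passing without irisin knockout replicate 3 (0.0431). The coding sequences of the pair are nearly alike, so probes of one may read RNA of the other, which was not tested. Scp2, whose longer product is the thiolase for branched chains and whose shorter product binds sterols, read 6.85, 7.05 and 6.82, against 6.55, 6.32 and 5.97 in wild type (difference 0.63, SE 0.16, adjusted p = 0.0327). Its groups did not overlap, yet the call held in only 1 of 6 fits without 1 array: adjusted p was 0.0849, 0.124 and 0.0738 without irisin knockout replicate 1, 2 or 3, and 0.0581 and 0.0752 without wild type replicate 2 or 3. It was also lost after quantile normalization (0.0962) and cyclic loess (0.109).

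Branched fatty acids such as phytanic acid are first shortened by alpha-oxidation. Phyh, the phytanoyl-CoA hydroxylase that starts it, read 8.57, 8.59 and 8.51 in irisin knockout, against 7.75, 7.88 and 7.60 in wild type (difference 0.81, SE 0.12, adjusted p = 0.00314). Amacr, the racemase that turns branched acyl-CoA into the form that can be oxidised, read 5.20, 5.25 and 5.26, against 4.49, 4.29 and 4.07 in wild type (difference 0.96, SE 0.13, adjusted p = 0.00267). In both genes the irisin knockout arrays were close together and all above the wild type arrays. Hacl1, the lyase of the next step, read 3.00, 3.16 and 3.21, against 2.80, 2.81 and 2.78 in wild type. It lay above wild type in every array but missed the threshold (difference 0.33, SE 0.11, adjusted p = 0.0892), and passed after quantile normalization (0.0465) or centring (0.0337).

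Decr2, which reduces double bonds of unsaturated chains, read 6.02, 5.84 and 5.75 in irisin knockout, against 4.54, 4.07 and 4.28 in wild type (difference 1.57, SE 0.15, adjusted p = 0.000628). Crot, which hands shortened chains to carnitine for export, read 5.80, 6.08 and 5.84, against 5.10, 5.07 and 5.28 in wild type (difference 0.75, SE 0.13, adjusted p = 0.00587). Groups did not overlap in either gene, and both stayed called in every fit without 1 array and under all 3 other scalings. Pecr, a trans-2-enoyl-CoA reductase, overlapped between the groups (difference 0.20, 95% interval -0.13 to 0.54).

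Genes of ether lipid synthesis were split. Gnpat, the acyltransferase of the first step, read 7.88, 7.89 and 7.64 in irisin knockout, against 7.27, 7.18 and 6.71 in wild type (difference 0.75, SE 0.17, adjusted p = 0.0177), and lost its call without irisin knockout replicate 1 (0.0703) or 2 (0.076) and after cyclic loess (0.0707). Far1, which supplies the fatty alcohol, fell to 4.44, 4.37 and 4.50, against 5.28, 5.13 and 5.00 in wild type (difference -0.70, SE 0.12, adjusted p = 0.0062). Neither gene overlapped between the groups, and Far1 stayed called in every fit without 1 array and in all 3 other scalings. Agps, which forms the ether bond, had all irisin knockout values just above the wild type values but did not pass (difference 0.29, 95% interval -0.03 to 0.61). Far2, a relative of Far1, read 1.06 to 1.24 in irisin knockout and 1.09 to 1.19 in wild type, with overlapping groups; 18.1% of all genes were dimmer.

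**Figure D4:**
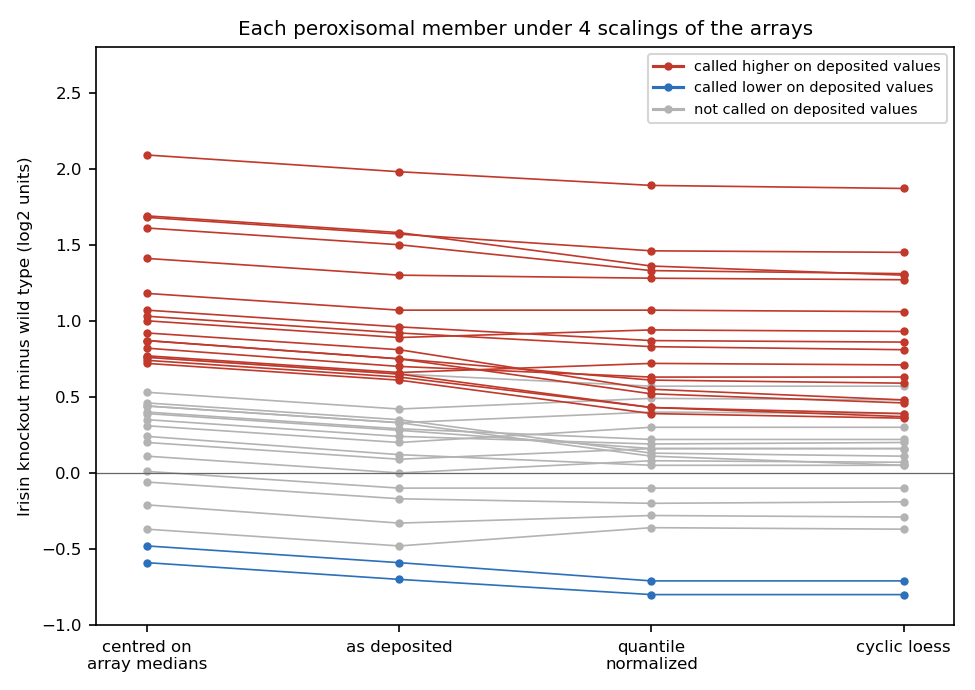
Irisin knockout minus wild type in log2 units for each of 35 peroxisomal genes under 4 scalings of the arrays, 1 line for each gene, red or blue where it was called higher or lower on the deposited values. All red lines stay above 0 and both blue lines below it, and the differences of 14 and 15 of the 17 genes called higher are smaller after quantile normalization and cyclic loess.

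Other genes linked to peroxisomes, called other peroxisomal genes here and in the figure, were listed by function for comparison, also with earlier results known. Not all of their products lie only in peroxisomes, as with Mpv17 below. Of 53 listed genes with a row, 24 were called higher (45.3%, beside 10.4% of all genes) and 3 lower (5.66%, beside 6.18%). The other 26 did not pass, and the median of the list was 0.46. Catalase (Cat), which breaks down hydrogen peroxide, averaged 10.80 ± 0.30 in irisin knockout and 8.15 ± 0.24 in wild type (SD, n = 3 each), 6.29-fold higher (adjusted p = 0.000211). The pyrophosphatase genes Nudt12 and Nudt7, which act on NADH and coenzyme A, were 6.03-fold and 2.98-fold higher (adjusted p = 0.000694 and 0.000563). Mpv17, a membrane protein first described in peroxisomes and later placed in mitochondria, was 5.21-fold higher (0.000267). Acad11, an acyl-CoA dehydrogenase, and Hsdl2, a dehydrogenase with a sterol carrier domain, were 2.86-fold and 2.63-fold higher (0.00118 and 0.000756). The genes that fell, named after their values were seen, were Pmvk of the mevalonate pathway (-0.86, adjusted p = 0.00359), the cofactor carrier Slc25a17 (-0.48, 0.0259) and the thioesterase Acot3 (-0.43, 0.0488). Of these Pmvk alone stayed called in every fit without 1 array; Slc25a17 and Acot3 reached adjusted p of 0.0987 and 0.154.

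**Figure D5:**
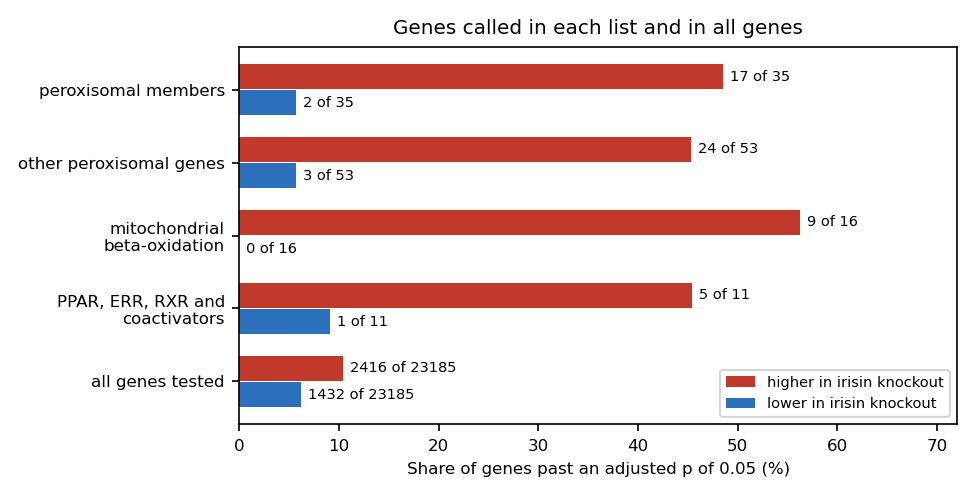
Percentage of genes past an adjusted p of 0.05 in each list and in all 23185 genes, with genes higher in irisin knockout in red above those lower in blue, and counts beside the bars. The 35 members and the 53 other peroxisomal genes show 17 and 24 genes higher, against 2416 of all genes.

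Nuclear receptors that control peroxisomal and mitochondrial lipid genes were mixed. Of 11 receptors and coactivators 5 were called higher (45.5%, beside 10.4% of all genes) and 1 lower (9.09%, beside 6.18%). Their median was 0.34. Ppard rose by 0.50 (adjusted p = 0.0197), the partner receptor Rxra by 0.75 (0.00585), Rxrg by 0.90 (0.0378), and the oestrogen-related receptors Esrrb and Esrrg by 0.75 (0.00827) and 1.12 (0.00274), while Rxrb fell by 0.52 (0.0253). Ppara and Ppargc1a were named after their values were seen. Ppara, the receptor best known for inducing Pex11a and Ehhadh in rodent liver, averaged 5.04 ± 0.16 in irisin knockout and 4.70 ± 0.61 in wild type (SD, n = 3 each), where replicate 1 was lower than the other arrays. Its groups overlapped and it did not pass (difference 0.34, SE 0.27, adjusted p = 0.469). Ppargc1a, a coactivator of these receptors, had all irisin knockout values below those of wild type, 8.38, 8.15 and 8.38 against 8.61, 8.81 and 8.68. It missed the threshold on the deposited values (-0.40, adjusted p = 0.0657) and passed after quantile normalization (-0.66, 0.0121) and cyclic loess (-0.75, 0.00736). Of the 6 calls in the list, Esrrg, Rxra and Esrrb held in all 6 fits without 1 array. Rxrg kept its call in 1, Rxrb in 2 and Ppard in 3 of 6 fits without 1 array. The highest adjusted p reached there were 0.12, 0.094 and 0.0852.

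Mitochondrial beta-oxidation, which takes over the shortened chains, was also measured. Of 16 genes 9 were called higher (56.2%) and 0 lower, beside 10.4% and 6.18% of all genes. Among all genes above the median level 20.2% were called higher. The mitochondrial median was 0.60, beside 0.61 for the peroxisomal genes. The carnitine carrier Slc25a20 differed by 1.18, Etfdh, which passes electrons to ubiquinone, by 1.03, Hadha, a subunit of the trifunctional protein, by 0.94, and the dehydrogenases Acadm, Hadh and Acadl by 0.90, 0.65 and 0.62 (adjusted p from 0.0023 to 0.00989). After cyclic loess 2 mitochondrial genes stayed higher and 1 was lower, against 13 higher and 2 lower of the 35 peroxisomal genes. Loess removes a difference that depends on level, and the median of all genes was highest (0.27) in the brightest of 10 parts. Each mitochondrial gene was brighter than at least 88.3% of all genes (Cpt1a lowest). Among the peroxisomal genes that share ran from 15.0% (Acox2) to 98.4% (Phyh), so the lists also differed in level. The difference in calls between these lists was not tested.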

How the data were processed

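The 3 irisin knockout and 3 wild type RNAs were isolated in TRIzol, biotin-labelled and read on Affymetrix arrays, as the protocols in the labels state. The authors' log2 values come from RMA (affy 1.61.0, R 3.6.0), per the submitters' processing notes. For the probe sets and the genome build, the sources used here give nothing. Of 25206 rows 23185 had 1 gene symbol and were tested, and 2021 had none. Array medians ran from 2.13 to 2.28 over all rows and from 2.23 to 2.36 over the tested genes; array number limits precision.

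Groups came from the sample titles. Tests were limma's lmFit and eBayes (limma 3.58.1, R 4.3.3), two-sided, genotype as the only term, Benjamini-Hochberg over all 23185 genes; the code was tested on simulated data. Given by array are called members and the 6 largest differences among the others. Of the other peroxisomal genes, the receptors and the mitochondrial genes, at most 6 called genes by p are named. Marker lists are given by counts and summed levels, except that every called smooth muscle and pericyte gene is named, outside this rule. So are the cardiomyocyte markers called on the deposited values or after cyclic loess. Pmvk, Slc25a17, Acot3, Ppara and Ppargc1a were named outside this rule, after their values were seen. Members and lists were chosen with earlier results of these data known. Targeting signals of the proteins were not analysed here. Alternatives are in the closing section. Figures used matplotlib 3.10.9.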

Additional observations from a re-analysis of the deposited data

How the results depend on the processing

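Of the 19 calls among the peroxisomal genes, 12 of 17 higher and 1 of 2 lower held in all 6 fits without 1 array, and 13 higher and both lower held in all 3 other scalings. Genes called higher numbered 12 to 17 without any 1 array, 15 after quantile normalization, 20 after centring, 13 after cyclic loess, 13 without both arrays numbered 1 and 12 at an adjusted p of 0.01. Genes called lower numbered 1 to 3 without any 1 array (1 without irisin knockout replicate 1, 3 without replicate 3) and 1 at an adjusted p of 0.01. The median of 0.61 became 0.43 after quantile normalization, 0.72 after centring, 0.39 after cyclic loess, 0.46 without both arrays numbered 1, and 0.48 to 0.64 without any 1 array. Filters on dim genes, all rows, a trend, a robust fit, array weights and a 1.5-fold minimum gave 17 or 18 higher and 2 lower. Signs turned only in genes not called: Pex5 (0.06 without irisin knockout replicate 1, its other one-array-out values reaching -0.31), Pex16 (0.01 after centring), Acox2 (-0.01 without irisin knockout replicate 3, others up to 0.18) and Far2 (0.08 after quantile normalization, 0.11 after centring, 0.07 after cyclic loess, and 0.01, 0.03 and 0.02 without irisin knockout replicate 2 or 3 or wild type replicate 3, the lowest such value being -0.06).

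With the replicate block 18 genes were higher and 2 lower, Pex10 being the addition (adjusted p = 0.0348). The deviations of same-numbered arrays correlated at 0.0896, 0.0478 and 0.07, all above 0 but under the 0.1 set for taking numbers as pairs. Of 6 arrays 5 correlated best with the array of their own number, and wild type replicate 2 correlated best with irisin knockout replicate 3. Deviations were taken from each group's own mean, so these matches depend on one another. They are at most a weak hint from the data and not from the design.

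In the other lists, receptors called higher numbered 3 after quantile normalization, cyclic loess, at 0.01, or without irisin knockout replicate 1 or 2 or wild type replicate 3, 2 without both arrays numbered 1, and 4 or 5 in the other settings; those called lower ran from 0 to 3 (3 without wild type replicate 1). Mitochondrial genes called higher, 9 on the deposited values, numbered 6 to 13 without any 1 array (6 without irisin knockout replicate 1 or 2, 13 without wild type replicate 2), 6 after quantile normalization, 11 after centring, with a trend, array weights or a dim filter, 2 after cyclic loess and 5 without both arrays numbered 1; 1 was lower after quantile normalization, cyclic loess or without wild type replicate 1. Other peroxisomal genes called lower numbered 1 after centring, with the replicate block, at 0.01, with the 1.5-fold minimum, or without irisin knockout replicate 2 or 3, wild type replicate 2 or both arrays numbered 1. Over all genes, 1403 to 2570 were higher and 701 to 1593 lower without any 1 array. The causes were not tested, and 3 arrays a group and no detection calls limit what can be said of dim genes.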
